A study of Mus musculus with 5 samples.

Results

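The integrin and laminin genes described here are the 34 genes named Itga, Itgb, Lama, Lamb or Lamc that at least 1 probe set of the array reads without also matching another gene, out of 18193 genes in all. They comprise 16 integrin α subunits, 8 integrin β subunits and 10 laminin chains, and were chosen by name, not by level. Itgb1bp1, Itgb1bp2, Itgb3bp, Itgbl1 and Itgb2l, whose names mark integrin-binding or integrin-like proteins, were left out, and Itga11 and Itgad are not analysed here.

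The samples form a single group, GFP+ cells sorted from embryonic mouse lungs at E17.5, with 5 biological replicates on 1 array each. The embryos came from FOXJ1-GFP mice mated to the out-bred ICR strain, and every sample carried the transgene, in which regulatory sequence of FOXJ1, the transcription factor of multiciliated cells, drives GFP. Lungs were broken into single cells with trypsin and EDTA, and no sample of GFP-negative cells or of another age was analysed here. The labels do not say whether replicates came from separate litters or from pooled embryos, and every p-value therefore covers only how far these 5 samples differed, which may be technical in part.

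Integrins are receptors that hold a cell to the matrix around it, and each is made of 1 α and 1 β subunit. Laminins are the cross-shaped or T-shaped proteins of the basement membrane, the sheet beneath an epithelium, and each is a trimer of an α, a β and a γ chain. In the airway the epithelium binds laminin through a few integrins at its base, while endothelium, smooth muscle, fibroblasts, white blood cells and platelets each carry integrins of their own.

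The sorted cells had the genes of multiciliated cells, and marker genes of several other cell types were above background as well. Background was the level below which 95% of 145 genes that lung cells should lack were found, namely 7.44 on the log2 scale of the deposited values. A gene was called above it by limma's one-sided test at an adjusted p under 0.05. Of 17 listed multiciliated cell genes 16 were above it, with Foxj1 at 12.82 ± 0.08 (SD, n = 5 arrays) and Spag6, at 3.67 ± 0.13, the exception. So were 15 of 15 endothelial, 11 of 14 fibroblast, 4 of 7 smooth muscle and pericyte, 11 of 15 white blood cell and 5 of 6 measured platelet genes, and 2 of 7 basal cell genes, Krt15 and Snai2. Other epithelial cells of the lung were represented too, with 8 of 8 alveolar type 1, 9 of 9 measured alveolar type 2 and 5 of 5 club cell genes above background. Among these were Sftpc of alveolar type 2 cells, at 14.06 ± 0.27, and Scgb3a2 of club cells, at 14.27 ± 0.07. These counts stand beside 62.2% of all genes tested, a share that the smooth muscle and basal cell genes did not reach. In a bulk sample, fewer cells of a type and less RNA per cell cannot be told apart.

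The sorted cells had transcripts of most laminin chains and of the epithelial laminin receptors, while none of the measured α subunits that are largely restricted to white blood cells passed the test. Of the 34 genes, 24 were above background, beside 62.2% of all genes tested. The count was 10 of 16 for α subunits, 6 of 8 for β subunits and 8 of 10 for laminin chains. The study set a cut-off of 5 arbitrary units on average expression, for its comparison with earlier progenitor cells. Here the 5 was taken as log2 and tested against the mean of the sorted-cell arrays alone, which is a different measure. It was passed by 32 of the 34, beside 81.3% of all genes. Itgam and Itgb8 did not pass. A probe set's brightness also depends on its sequence, so levels are not ranked between genes.

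**Figure D1:**
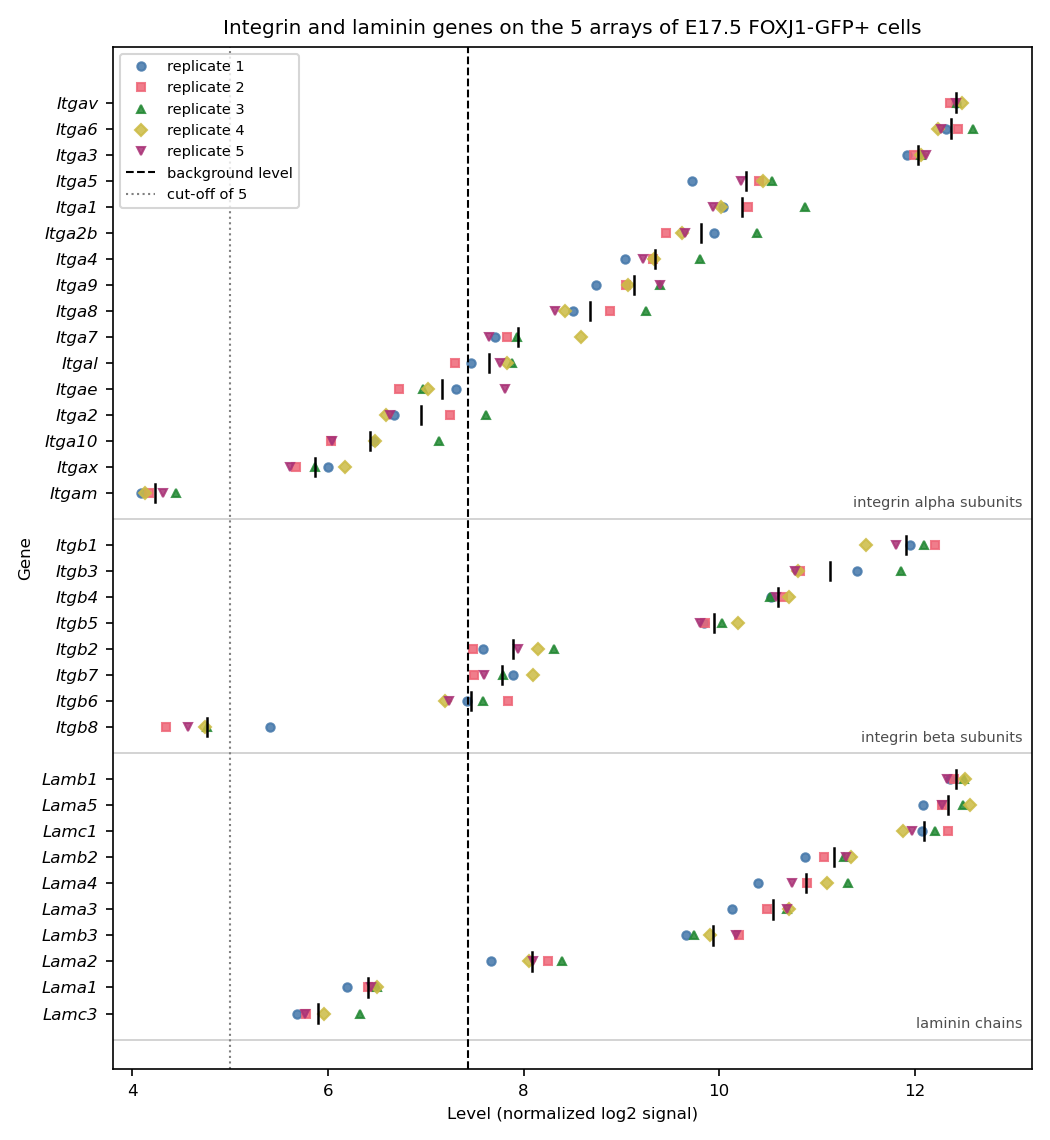
Levels of the 34 integrin and laminin genes on the 5 arrays. The horizontal axis gives the normalized log2 signal of the probe set used for each gene, each symbol is 1 replicate, black ticks are means over 5 arrays, the dashed line is the background level of 7.44 and the dotted line the cut-off of 5. Genes are ordered by mean within a family for legibility only, and the 24 genes above background have every array to the right of the dashed line.

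The 3 α subunits that form laminin receptors were all above background. Itga3, which pairs with Itgb1 in epithelia, read 11.93, 11.99, 12.07, 12.07 and 12.12 in replicates 1 to 5 (mean 12.03 ± 0.08, adjusted p = 1.18e-10). Itga6, which pairs with Itgb1 or Itgb4, read 12.32, 12.44, 12.60, 12.24 and 12.27 (12.38 ± 0.15, adjusted p = 1.89e-10). The SD of Itga3 was larger than that of 19.0% of the 500 genes nearest in mean level. For Itga6 this share was 67.4%. Itga7, a laminin receptor subunit of muscle, read 7.70, 7.83, 7.93, 8.59 and 7.64, 0.50 above background on average (adjusted p = 0.00886), with replicate 4 apart from the others.

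Of the collagen-binding α subunits 1 of 3 was above background. Itga1, found on smooth muscle, fibroblasts and capillaries, read 10.04, 10.30, 10.88, 10.02 and 9.94 (mean 10.23 ± 0.39, adjusted p = 2.35e-07), highest in replicate 3. Itga2, a collagen receptor subunit of epithelia and platelets, had a mean of 6.95 ± 0.45 and exceeded the level in replicate 3 alone, at 7.61. Itga10, the subunit of cartilage, had a mean of 6.43 ± 0.45 and stayed below the level on each array, again with its highest value, 7.14, in replicate 3.

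All 4 α subunits that recognise the short RGD motif of matrix proteins were above background. Itgav, which pairs with several β subunits and activates latent TGFβ, read 12.42, 12.36, 12.43, 12.48 and 12.42 (12.42 ± 0.04, adjusted p = 7.97e-11), with the smallest SD of the 34 genes. Itga5, the fibronectin receptor subunit, read 9.73, 10.40, 10.54, 10.45 and 10.23 (10.27 ± 0.32, adjusted p = 8.47e-08), and replicate 1 was the lowest. Itga8, which binds nephronectin and marks smooth muscle and other mesenchyme, read 8.50, 8.89, 9.25, 8.42 and 8.32 (8.67 ± 0.39, adjusted p = 5.11e-05). Replicate 3 was again the highest for Itga8, as it was for Itga2b, the platelet subunit described further on.

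Itga4 and Itga9, related subunits that bind VCAM1, fibronectin or tenascin, were above background as well. Itga4, known from white blood cells and mesenchyme, had values from 9.04 in replicate 1 to 9.81 in replicate 3 (mean 9.35 ± 0.28, adjusted p = 5.82e-07). Itga9, found on airway epithelium, muscle and lymphatic endothelium, ranged from 8.74 in replicate 1 to 9.39 in replicate 5 (9.13 ± 0.28, adjusted p = 1.13e-06).

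None of the 4 measured α subunits that are largely restricted to white blood cells was above background. Itgal, the α subunit of LFA-1, was nearest, at 7.65 ± 0.25 with 4 of 5 arrays over the level (adjusted p = 0.0812). Itgae, which holds intraepithelial lymphocytes to E-cadherin, was at 7.17 ± 0.42. Itgax, of dendritic cells and macrophages, was at 5.86 ± 0.23, and Itgam, of neutrophils and macrophages, at 4.23 ± 0.15. Their β partners passed by small margins. Itgb2, the partner of Itgal, Itgam and Itgax, read 7.59, 7.49, 8.31, 8.15 and 7.95, 0.46 above the level (adjusted p = 0.0105). Itgb7, the partner of Itgae and Itga4, was 0.34 above it (7.77 ± 0.24, adjusted p = 0.0113) and lost its call without replicate 1 (0.21 above, adjusted p = 0.119). Of the 15 listed white blood cell genes 11 were above background, among them Lcp1 at 12.25 ± 0.13, Csf1r, a receptor of macrophages, at 11.53 ± 0.36, Laptm5 at 11.24 ± 0.51 and Coro1a at 10.16 ± 0.47. The defining gene Ptprc had a mean under the level, at 7.33 ± 0.58, but was over it in replicates 4 and 5, at 7.71 and 8.03. C1qa and Aif1 were under the level on each array, and C1qc was not called. The summed signal of the 15 listed genes lay between 13.57 and 14.23 (log2) on the 5 arrays; their part in these values was not tested.

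The epithelial β subunits Itgb1 and Itgb4 were above background, and 2 of the 4 β partners of Itgav were. Itgb1, the common partner of most α subunits above, read 11.95, 12.21, 12.09, 11.50 and 11.81 (mean 11.91 ± 0.28, adjusted p = 2.23e-09), lowest in replicate 4. Itgb4, which with Itga6 anchors the hemidesmosome, read 10.53, 10.66, 10.52, 10.72 and 10.58 (10.60 ± 0.08, adjusted p = 6.82e-10), within 0.20 of each other. Itgb5 was at 9.95 ± 0.16 (adjusted p = 1.02e-08). Itgb6, the epithelial activator of TGFβ, straddled the level at 7.46 ± 0.26, with replicates 2 and 3 above it (adjusted p = 0.888). Itgb8, its relative, was at 4.76 ± 0.40, with 5.41 in replicate 1 and at most 4.76 elsewhere.

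All chains of the widespread epithelial laminin, Lama5, Lamb1 and Lamc1, were above background. Lama5 read 12.09, 12.28, 12.50, 12.56 and 12.28 (12.34 ± 0.19, adjusted p = 3.6e-10), and Lamb1 read 12.37, 12.40, 12.50, 12.51 and 12.33 (12.42 ± 0.08, adjusted p = 9.73e-11). Lamc1, the γ chain of most laminins, read 12.08, 12.34, 12.21, 11.89 and 11.98 (12.10 ± 0.18, adjusted p = 4.1e-10). Its lowest array was replicate 4, as for Itgb1, and its highest replicate 2. Lamb2, which can stand in for Lamb1, was at 11.18 ± 0.19 (adjusted p = 1.62e-09).

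So were Lama3 and Lamb3, chains of the hemidesmosomal laminin. Lama3 read 10.14, 10.49, 10.70, 10.72 and 10.70 (10.55 ± 0.25, adjusted p = 1.3e-08), and replicate 1 lay below the other 4. Lamb3 read 9.66, 10.21, 9.75, 9.91 and 10.18 (9.94 ± 0.25, adjusted p = 5.02e-08), with replicates 2 and 5 high. The arrays thus did not rank alike for these partner chains.

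The α chains of other tissues split. Lama4, the chain of endothelial basement membranes, read 10.40, 10.90, 11.32, 11.10 and 10.75 (10.89 ± 0.35, adjusted p = 3.45e-08). Lama2, of muscle and nerve, read 7.67, 8.25, 8.39, 8.05 and 8.09, 0.65 above background (adjusted p = 0.000491). Lama1, of the early embryo and kidney, was at 6.41 ± 0.12 and Lamc3 at 5.90 ± 0.26, and neither exceeded the level on any array.

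Some calls depended on the choice of probe set or of background genes. Itga5 and Lama3 went below the level when probe sets with a suffix for shared or variant targets were left out, and Itga4, Itga5, Itga8 and Itgav did so when all probe sets of a gene were averaged, where Itgb1 was no longer called (0.09 above, adjusted p = 0.252). Against the 99th percentile of the background genes, at 9.64, Itga4, Itga7, Itga8, Itga9, Itgb2, Itgb7 and Lama2 lay below and Itga2b was not called. The count was then 16 of 34, beside 40.2% of all genes.

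Several of these genes have further probe sets, which did not read alike. The 34 genes have 73 probe sets, of which 37 were above background, beside 52.7% of all single-gene probe sets. Of 20 genes with more than 1 probe set, 5 had every probe set above background (Itga1, Itga3, Itga6, Itgb5 and Lamc1), 11 had some and 4 had none. It was 1 of 5 for Itgav and Itga4, 1 of 4 for Itga5 and 1 of 2 for Itga8, Itgb3, Lama3 and Lama4. The other Itgav probe sets had means of 6.73, 5.56, 5.15 and 4.51. The second Itgb3 probe set was at 5.58 ± 0.37, highest in replicate 1 and lowest in replicate 4. The means of the 6 Itgb1 probe sets were 11.91, 11.15, 6.83, 6.12, 5.75 and 2.93, and those of the 4 for Lamb1 were 12.42, 11.21, 9.44 and 4.81. The brighter pair for Itgb1 had both their highest value in replicate 2. For Lama4, the second probe set was at 7.43 ± 0.44 with its highest value in replicate 2, where the one used was highest in replicate 3.

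The integrin and laminin genes above background spread more between the replicate sorts than the typical gene. Their median SD was 0.26, against 0.15 over all 11320 genes above background. Of the 24 genes, 7 had an SD among the highest 10% of the 500 genes nearest in mean level, 29.2% of them, beside 9.89% of all genes above background. The 7 were Itga1, Itga2b, Itga5, Itga8, Itgb1, Itgb3 and Lama4. At the other end, Itgav had an SD larger than that of 4.6% of the genes of like level, Itgb4 of 13.4% and Itga3 of 19.0%. These shares describe the 5 arrays and carry no test, and without replicate 1 the median SD was 0.20.

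**Figure D2:**
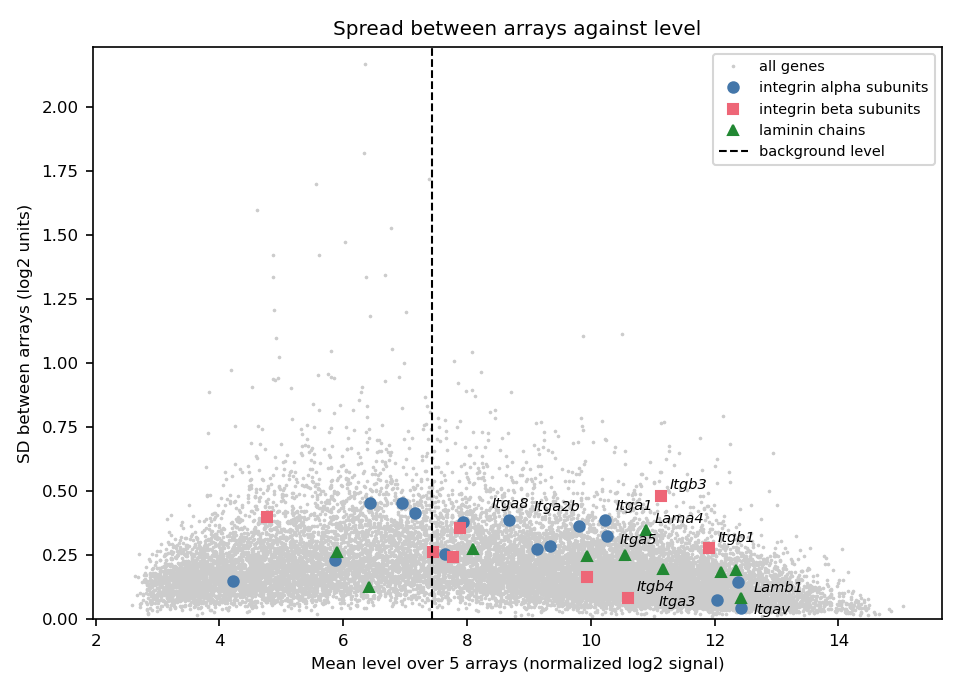
SD between the 5 arrays (vertical axis, log2 units) against mean level (horizontal axis, normalized log2 signal) for all 18193 genes in grey and the 34 integrin and laminin genes in colour, with the background level dashed. Itgb3, with an SD of 0.48, stands above 98.8% of the genes of like level, and Itgav, with 0.04, near the lower edge; named points are the 7 genes in the highest 10% and the 4 with an SD under 0.09.

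Replicate 3 was the highest array for many of these genes and replicate 1 the lowest. Of the 24 genes above background, 10 had their highest value in replicate 3, beside 20.6% of all genes above background, and 9 had it in replicate 4, beside 23.1%. None had it in replicate 1, beside 31.1% of all genes. Their lowest value was in replicate 1 for 10 of 24, again beside 20.6% of all genes. Averaged as the deviation from each gene's own mean, the 16 integrin subunits stood at -0.12, -0.06, 0.27, 0.02 and -0.11 in replicates 1 to 5, and the 8 laminin chains at -0.28, 0.05, 0.14, 0.07 and 0.01. The range over arrays was 0.39 for integrins and 0.42 for laminins. Single arrays made up most of these ranges: without replicate 3 the integrin range was 0.135, and without replicate 1 the laminin range was 0.131. Replicate 1 was also the lowest array for 9 of 9 alveolar type 2 genes, with a mean deviation of -0.65, and for 5 of 8 alveolar type 1 genes. The highest arrays differed. All 9 alveolar type 2 genes were highest in replicate 5, with a mean deviation of 0.63, as only 2 of the 24 integrin and laminin genes were. Of the 8 alveolar type 1 genes, 5 were highest in replicate 2, as were 3 of the 24. The part of alveolar cells in the integrin and laminin values was not tested.

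**Figure D3:**
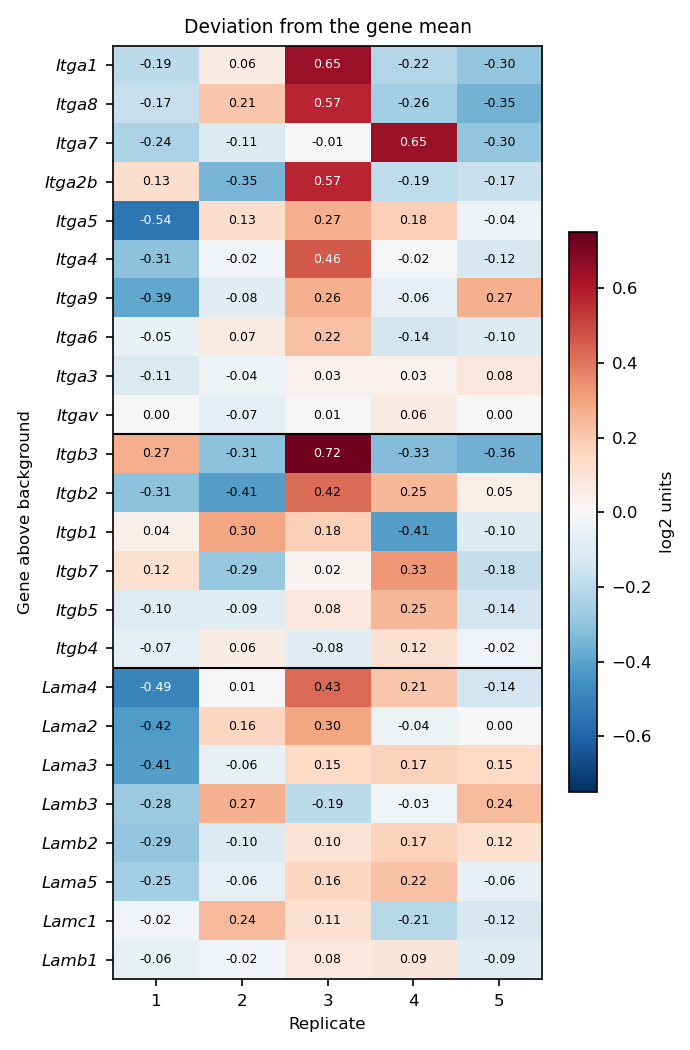
Deviation of each array from the gene's mean over 5 arrays (log2 units, colour and printed value) for the 24 genes above background, with α subunits at the top, β subunits in the middle and laminin chains at the bottom, each sorted by SD. The largest deviation, 0.72 for Itgb3, is in replicate 3, Itga7 stands 0.65 above its mean in replicate 4, and replicate 1 holds the lowest value for 6 of the 8 laminin chains.

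The platelet integrin pair ran along with platelet genes. Itga2b and Itgb3 together form the fibrinogen receptor of platelets and megakaryocytes, and Itgb3 also pairs with Itgav on other cells. Itga2b read 9.95, 9.46, 10.39, 9.62 and 9.65 in replicates 1 to 5 (9.81 ± 0.37, adjusted p = 5.11e-07). Itgb3 read 11.41, 10.83, 11.86, 10.81 and 10.78 (11.14 ± 0.48, adjusted p = 1.35e-07). For both, replicate 3 was the highest and replicate 1 the next. Itgb3 had a larger SD than 98.8% of the genes of like level.

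Beside them, 5 of 6 measured platelet genes were above background, Gp6 at 6.74 ± 0.62 being the exception. Pf4, a chemokine of platelet granules, read 11.40, 11.07, 11.93, 11.50 and 11.44, and Ppbp, another, read 11.21, 10.62, 11.87, 10.88 and 10.55. Replicate 3 was the highest for 4 of the 5 genes and replicate 2 the lowest for 3 of the 5. Their mean deviations were 0.05, -0.44, 0.56, -0.09 and -0.10 in replicates 1 to 5, against 0.13, -0.35, 0.57, -0.19 and -0.17 for Itga2b and 0.27, -0.31, 0.72, -0.33 and -0.36 for Itgb3. The summed signal of the 6 genes lay between 12.49 and 13.51 (log2). Fermt3, the form of kindlin that blood cells use to activate integrins, read 10.85, 10.22, 11.43, 10.52 and 10.36, in the same way highest in replicate 3 and next in replicate 1. The 5 arrays are too few for a correlation across samples, and the part of platelets in these values was not tested.

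The region upstream of Itga2b is shown since this gene carries the pattern above, beside those of the common subunits Itgb1 and Lamb1. Each is the 250 bases before the RefSeq start of the gene in GRCm38.p6, read along the gene's strand: chr11:102469884-102470133 on the minus strand for Itga2b, chr8:128685404-128685653 on the plus strand for Itgb1 and chr12:31265043-31265292 on the plus strand for Lamb1. Capitals mark GGAAG, a core bound by ETS factors, in Itga2b and GGGCGG, the GC box, in the other two, on either strand; GGAAG is left in lower case in those.
Itga2b: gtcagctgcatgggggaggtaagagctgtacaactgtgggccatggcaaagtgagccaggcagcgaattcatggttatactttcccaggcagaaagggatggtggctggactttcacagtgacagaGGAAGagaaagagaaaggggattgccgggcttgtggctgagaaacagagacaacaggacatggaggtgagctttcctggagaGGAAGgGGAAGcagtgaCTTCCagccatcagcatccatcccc
Itgb1: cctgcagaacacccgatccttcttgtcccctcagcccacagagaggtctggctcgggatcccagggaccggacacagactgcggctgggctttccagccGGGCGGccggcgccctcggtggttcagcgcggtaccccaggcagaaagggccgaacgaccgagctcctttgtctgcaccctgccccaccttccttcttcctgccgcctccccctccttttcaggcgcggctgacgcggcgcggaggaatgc
Lamb1: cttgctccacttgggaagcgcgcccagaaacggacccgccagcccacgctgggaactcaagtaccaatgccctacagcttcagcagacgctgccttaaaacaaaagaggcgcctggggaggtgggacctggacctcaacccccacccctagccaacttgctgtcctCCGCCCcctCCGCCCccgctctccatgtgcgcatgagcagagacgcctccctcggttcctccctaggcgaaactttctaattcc

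The Itga2b window held GGAAG 4 times, but the motif is common. Of the 34 genes 22 matched a window, and Itgb3 did not. The motif was in 17 of the 22 and in 64.1% of all 32851 windows. GGGCGG was in 8 of the 22 and in 32.7% of all windows. GATAA, a core of GATA factors that act in megakaryocytes, was in 2 of the 22, Itgax and Lama2, and in 22.6% of all windows, and TGANTCA, the AP-1 site, was in 1, Itgax, and in 6.75% of all windows. A match is a run of letters in this window and no evidence of binding.

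Lama4 and Itga5 had the same lowest and highest arrays as the endothelial and fibroblast genes had on average, and as 2 neutrophil genes. The 15 endothelial genes, all above background, had mean deviations of -0.56, 0.19, 0.42, 0.09 and -0.13 in replicates 1 to 5, with replicate 1 the lowest for 14 and replicate 3 the highest for 13. The deviations of Lama4 were -0.49, 0.01, 0.43, 0.21 and -0.14 and those of Itga5 -0.54, 0.13, 0.27, 0.18 and -0.04. For both genes replicate 1 was thus the lowest and replicate 3 the highest. This order was not particular to them. Itga4, at -0.31 and 0.46 in those arrays, and Lama2, at -0.42 and 0.30, shared it, as did the white blood cell genes Csf1r and Laptm5. Of the 11 white blood cell genes above background, 10 were lowest in replicate 1, but only these 2 were highest in replicate 3. In that list 5 genes were highest in replicate 5 and 3 in replicate 4. Pecam1, an adhesion molecule of endothelium, read 10.45, 11.22, 11.39, 10.56 and 10.55, and Cdh5, the endothelial cadherin, 10.22, 11.07, 11.02, 10.59 and 10.48. The summed signal of the endothelial list lay between 14.26 and 15.22 (log2). The 11 fibroblast genes above background stood at -0.23, 0.03, 0.26, -0.05 and -0.01, with replicate 1 the lowest for 6 and replicate 3 the highest for 8, and their summed signal over 14 listed genes lay between 14.56 and 15.11 (log2). Of 5 measured neutrophil genes only 2 were above background, S100a8 and S100a9, beside 62.2% of all genes tested. Both were lowest in replicate 1 and highest in replicate 3 too, with mean deviations of -1.54 and 0.85 there. Ngp at 7.32, Camp at 6.67 and Mpo at 4.97 were not called. Ngp had the same lowest and highest arrays, but Camp was highest in replicate 4, and Mpo was highest in replicate 5 and lowest in replicate 3. The part of any of these cell types in the values of Lama4 and Itga5 was not tested.

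Itga1 and Itga8 were high in replicate 3 and low in replicates 4 and 5. Their deviations were -0.19, 0.06, 0.65, -0.22 and -0.30 for Itga1 and -0.17, 0.21, 0.57, -0.26 and -0.35 for Itga8. The 4 smooth muscle and pericyte genes above background stood at -0.17, 0.24, 0.31, -0.01 and -0.36, among them Acta2, smooth muscle actin, which was lowest in replicate 5 at 11.38 and highest in replicate 3 at 11.94, and Myh11, smooth muscle myosin, at 8.57 and 9.71 there. Tagln and Actg2, also above background, were instead highest in replicate 2, and Tagln was lowest in replicate 1. Replicate 3 was thus the highest for 2 of the 4 genes and replicate 5 the lowest for 3. Cnn1, Des and Cspg4 were not above background, and the summed signal of the 7 genes lay between 12.38 and 12.94 (log2). Replicate 5 was low in both, whereas in replicate 4 the integrins were lower than these markers. What smooth muscle or pericytes contributed was not tested.

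**Figure D4:**
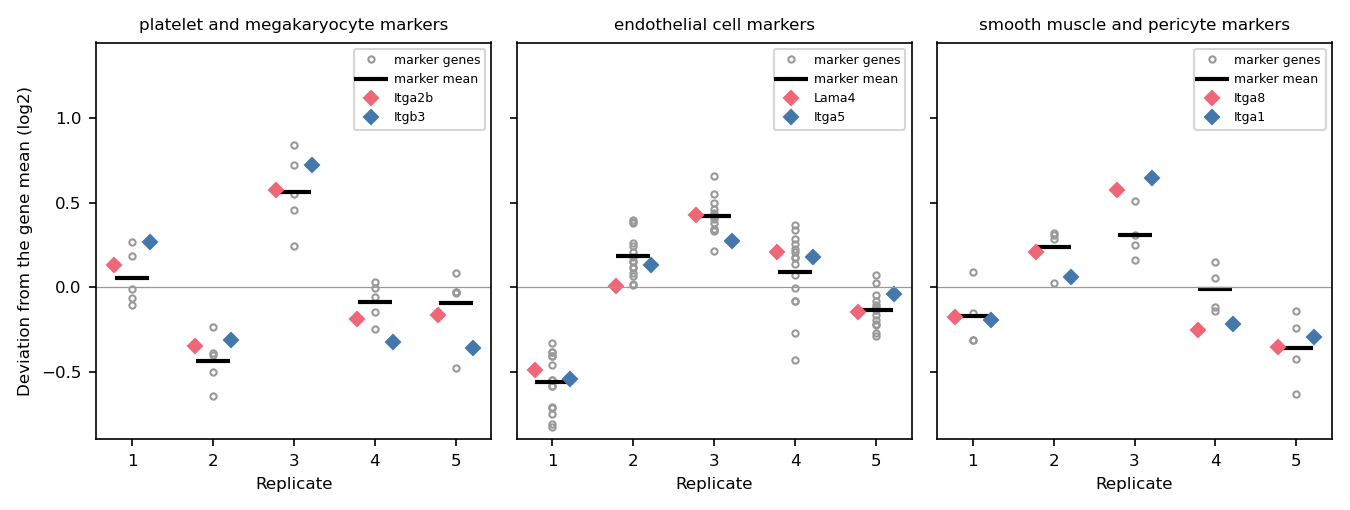
Deviation from the gene mean (vertical axis, log2 units) in each replicate (horizontal axis; replicates have no order). Diamonds are the 2 integrin or laminin genes named in each panel, open circles the marker genes above background of platelets (5), endothelium (15) or smooth muscle and pericytes (4), and black bars the mean of the markers. In replicate 3 Itga2b, at 0.57, and Itgb3, at 0.72, lie beside the platelet mean of 0.56, and in replicate 1 Lama4, at -0.49, and Itga5, at -0.54, beside the endothelial mean of -0.56; the genes of each panel were chosen after their values were seen.

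The markers of the sorted cell type moved little on average, but not each of them. The 16 multiciliated cell genes above background had mean deviations between -0.04 and 0.05, a range of 0.09, and the 8 epithelial genes a range of 0.14. Dnah5, an axonemal dynein heavy chain, was the widest, with deviations of 0.81, 0.65, -0.80, -0.30 and -0.35 (SD 0.69), highest in replicate 1 and lowest in replicate 3. Rsph9, of the ciliary radial spoke, had an SD of 0.22, Cldn7, of tight junctions, 0.20 and Nkx2-1, the lung transcription factor, 0.34, each lowest in replicate 3. The median SD was 0.09 in each of these lists. Itga3, Itgav, Itgb4 and Lamb1 had SDs of 0.04 to 0.08, but they are named because their SD was under 0.09. Other members found in epithelia spread more, with SDs of 0.28 for Itgb1, 0.25 for Lama3 and Lamb3, 0.19 for Lama5 and 0.15 for Itga6. Basal cells, the epithelial cells that rest on hemidesmosomes in the adult airway, had 2 of 7 listed genes above background, Krt15 at 11.11 ± 0.28 and Snai2 at 9.94 ± 0.30. Trp63, their defining transcription factor, had a mean of 7.17 ± 0.57 and was over the level in replicate 1 alone, at 8.10, and Krt5 was at 6.79 ± 0.22.

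Of the hemidesmosome genes that act with Itga6 and Itgb4, 3 of 4 were above background, beside 62.2% of all genes tested. Plec, the plectin that links the integrin to keratin, was at 11.99 ± 0.04, Dst, which encodes a further linker, at 12.40 ± 0.16, and Cd151, a tetraspanin that binds laminin receptors, at 12.91 ± 0.06. Col17a1, the collagen of the hemidesmosome, was at 5.11 ± 0.37, with its highest array at 5.54.

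Nearly all other listed genes of the basement membrane and of the integrin machinery were above background, beside 62.2% of all genes tested. Against the 99th percentile of the background genes, 14 basement membrane partners and 21 adhesion complex genes were called, beside 40.2% of all genes. Of 21 basement membrane partners of laminin 20 were, all but Fras1 at 7.40 ± 0.32. The nidogens that join laminin to collagen, Nid1 and Nid2, were at 11.72 ± 0.30 and 10.13 ± 0.37, the proteoglycan Hspg2 (perlecan) at 10.62 ± 0.38 and Agrn at 12.49 ± 0.18. All 4 had replicate 1 as their lowest and replicate 3 as their highest array, as Lama4 did, but the list as a whole did not. Of the 20 above background, 8 were highest in replicate 3 and 11 lowest in replicate 1, each beside 20.6% of all genes above background. A further 4 were highest in replicate 1, beside 31.1%. Of 27 measured genes of the adhesion complex 26 were above background, all but Parvg at 5.90 ± 0.24. Tln1 was at 11.29 ± 0.19, Tln2 at 9.92 ± 0.15 and Fermt2 at 11.83 ± 0.13. Among the 26, 16 were highest in replicate 3 and 13 lowest in replicate 1, each again beside 20.6% of all genes above background.

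Of 15 measured integrin ligands and TGFβ genes 13 were above background, beside 62.2% of all genes tested. Fn1, or fibronectin, the ligand of Itga5, read 11.57, 12.28, 12.48, 11.57 and 11.61 (11.90 ± 0.44), high in replicates 2 and 3 alone, and Tnc, tenascin, a ligand of Itga9, was at 9.01 ± 0.38. Cdh1, which is E-cadherin and the ligand of Itgae, was at 13.46 ± 0.08 although Itgae itself was not called. Vtn, vitronectin, was at 4.70 ± 0.55 and Madcam1, the ligand of Itgb7 with Itga4, at 4.57 ± 0.22, and neither was above background.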

How the data were processed

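RNA of GFP+ cells from 5 FOXJ1-GFP samples was amplified and labelled by the authors, hybridised to Affymetrix mouse arrays and analysed by them in R using Bioconductor. The deposited values, 1 per probe set and array, are taken as normalized log2 signals because they run from 2.37 to 15.11 with near-equal quantiles on all arrays. The steps that summarised and normalized the probes were not given in the sources used here. Medians of the arrays lay between 7.18 and 7.26 and Pearson's r between arrays, across probe sets, between 0.987 and 0.994.

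Probe sets were named through the platform annotation (34945 with 1 gene, 932 with several and 9160 unnamed, after 64 controls were left out), and all 34 symbols matched the GRCm38.p6 gene table by Entrez identifier. Each gene was read from its brightest probe set. Background genes were 77 olfactory, vomeronasal and taste receptors and 68 tissue-restricted genes, of which 7 were themselves called. The mean of each probe set was fitted in R 4.3.3 by limma 3.58.1 (lmFit, then eBayes), with a one-sided test against the level and Benjamini-Hochberg adjustment over 45037 probe sets. Other steps used Python 3.11.15, numpy 2.4.6, pandas 2.3.3, scipy 1.17.1 and matplotlib 3.10.9. The fit was tested on simulated data. All 34 members are named. Members and lists were chosen with earlier results of these data known, and the pairing of members with marker lists was made after their values were seen. The number of arrays limits the precision. Alternatives were averaged probe sets, probe sets without a suffix, quantile normalization, centring, all 5 arrays above the level, each replicate left out, a filter at 5, a cut-off of 6 and 3 other backgrounds. Listed genes without a probe set of their own were left out.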

Additional observations from a re-analysis of the deposited data

Results flagged for a closer look

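Lama1 in replicate 1, at 6.20, lay apart from the other 4 arrays, which read between 6.41 and 6.50: its gap to the nearest of them was 0.72 of the whole range, past the 95% critical value of 0.71 in Dixon's test for 5 values. It was the only one of 34 genes to do so, and chance alone gives about 1 in 20. The gene was not above background.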

How the results depend on the processing

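Of the 24 genes above background, 12 kept their direction and their call under all 14 settings of the test against it: Itga1, Itga3, Itga6, Itgb3, Itgb4, Itgb5, Lama4, Lama5, Lamb1, Lamb2, Lamb3 and Lamc1. Itgam and Itgb8 were below it in every setting that kept them. Quantile normalization, centring and a call on all 5 arrays changed no call, nor did a filter on means above 5, which removes Itgam and Itgb8. At a cut-off of 6 in place of 5, 30 genes passed. With probe sets averaged, α subunits above background numbered 6, and the differences from the level were -0.89 for Itga5, -0.95 for Itga8, -0.49 for Itgav, -0.86 for Itga4, -0.56 for Itgal and -0.63 for Itgb6; Itgb1, at 0.09, was not called (adjusted p = 0.252). Without suffixed probe sets they were -1.31 for Itga5, -1.42 for Itgb6 and -2.44 for Lama3. With each replicate left out in turn, Itgb6 lay between -0.17 and 0.15 from the level, the median SD between 0.20 and 0.27, the integrin range between 0.135 and 0.40 and the laminin range between 0.131 and 0.42; Itgb7 was not called without replicate 1, and the count above background was 23 without replicate 1 and 24 otherwise.

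Against the 99th percentile, 5 α subunits, 22 probe sets and 8 ligand genes were above background, and differences were -1.70 for Itga7, -0.96 for Itga8, -0.29 for Itga4, -0.51 for Itga9, -1.99 for Itgal, -2.18 for Itgb6, -1.74 for Itgb2, -1.86 for Itgb7 and -1.54 for Lama2; Itga2b, at 0.18, was not called (adjusted p = 0.433). Against the tissue-restricted genes alone (level 8.89) 18 of the 34 genes were called, beside 49.2% of all genes, and differences were -0.96 for Itga7, -0.22 for Itga8, -1.25 for Itgal, -1.44 for Itgb6, -0.999 for Itgb2, -1.12 for Itgb7 and -0.80 for Lama2; Itga9, at 0.23, was not called (adjusted p = 0.102). Against the receptor genes alone (level 5.43) 32 of the 34 genes, beside 77.4% of all genes, and 60 of their probe sets were called, and the differences turned positive for Itga2 (1.52), Itga10 (1.00), Itgax (0.44), Itgae (1.74), Lama1 (0.98) and Lamc3 (0.47), while Itgal and Itgb6 were called. Changes under these 3 backgrounds follow from the level that each sets; for the other settings the cause was not tested. No paired analysis was possible because the labels hold 1 group.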
